A study of Mus musculus with 9 samples.

Results

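The genes considered here are 9 markers and regulators of dendritic cells (DCs) and macrophages, some of them expressed in both: *Itgax*, *Zbtb46*, *Flt3*, *Dpp4*, *Adgre1*, *Itgam*, *Mertk*, *Sirpa* and *Spi1*. They were taken by gene symbol from a table of read counts for 55471 mouse genes, and all 9 were among the 16260 genes with enough counts to be tested. Their values did not enter the choice, but results of the same data were known when it was made.

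DCs and macrophages are myeloid cells that take up antigen, and they share many surface proteins. Conventional DCs develop under the cytokine FLT3 ligand, express the transcription factor ZBTB46 and migrate to lymph nodes to prime T cells, whereas macrophages depend on the CSF1 receptor and clear dead cells through receptors such as MERTK. Bone marrow grown in GM-CSF yields a mixed culture of DC-like and macrophage-like cells, so the genes of both kinds are measured here in the same RNA.

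RNA sequencing was carried out on 9 libraries of wild-type DCs derived from bone marrow of female C57BL/6 mice aged 8 to 20 weeks, per the study's methods, and all cultures received GM-CSF at 20 ng/mL. The 3 groups of 3 libraries were unstimulated DCs, DCs activated with LPS (lipopolysaccharide of *Escherichia coli*, a ligand of TLR4) at 100 ng/mL and DCs treated with the cytokine IFN-β at 1000 U/mL, and both treatments lasted 6 h. Each group has libraries lettered A, B and C. The labels do not say what a letter marks or whether the libraries came from separate mice or cultures, so p-values measure only the spread between these libraries.

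Total counts assigned to genes ranged from 33425803 to 35877346 in unstimulated DCs, from 36115384 to 41015280 in LPS-activated DCs and from 36843765 to 43735199 in IFN-β-treated DCs. Markers of lymphoid and erythroid cells were low: the summed level of 10 T and NK cell genes lay between 0.741 and 4.46 CPM (counts per gene scaled to the library total), that of 7 B cell genes between 0.801 and 1.83 CPM, and that of 6 erythroid genes between 0.0225 and 0.262 CPM. Most of the T and NK cell sum in LPS-activated DCs was *Lck*, which rose from 0.31 to 3.60 CPM (log2 fold change 3.51, edgeR adjusted p = 5.5e-06). The sum of 12 neutrophil genes lay between 313 and 517 CPM, most of it *Mmp8* (421, 271 and 381 CPM on average in unstimulated, LPS-activated and IFN-β-treated DCs). *Ly6g*, *Mpo*, *Elane* and *Retnlg*, named after their values were seen, were too low to be tested. The other 8 were tested, among them *Csf3r* (18.4 CPM in unstimulated and 79.6 in LPS-activated DCs). *S100a8*, also named after its values were seen, had 10.0 and 12.8 CPM in the same order. Eosinophil, basophil and mast cell genes summed to between 90.4 and 266 CPM, plasmacytoid DC genes to between 85.5 and 281 CPM, and stromal genes to between 6.65 and 44.9 CPM. A single gene made up most of each of these 3 sums in LPS-activated DCs. These were *Hdc* (0.440 CPM on average in unstimulated and 142 in LPS-activated DCs), *Tcf4* (39.3 and 225 CPM) and *Pdgfrb* (0.714 and 23.5 CPM). The labels name no sort of the cells, and in bulk RNA fewer cells of a type and less RNA per cell cannot be told apart.

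Levels are given as CPM on library sizes scaled by TMM, a method that assumes most genes do not change. Genes are compared with each other only per length, as RPKM (CPM per kilobase of exon). In unstimulated DCs, *Itgax* had the highest level of the 9 genes, with 286 ± 3.96 RPKM (SD, n = 3), followed by *Sirpa* with 201 ± 19.2 and *Spi1* with 92.8 ± 8.84 RPKM. *Itgam* (59.9 ± 5.66 RPKM) and *Adgre1* (48.7 ± 14.8 RPKM) had overlapping ranges, and *Mertk* lay below them with 27.9 ± 2.87 RPKM. The place of *Itgam* depends on which of its exon bases are used, as given below. The 3 remaining genes, all of the DC lineage, were lowest. *Zbtb46* reached 3.82 ± 0.531 RPKM, *Dpp4* 1.59 ± 0.226 RPKM and *Flt3* 0.495 ± 0.204 RPKM. *Itgax* thus ranked 77th of 16239 genes with a length and *Flt3* ranked 12901st.

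Of the DC genes, *Itgax* thus stood at a very high level and *Zbtb46* at a middle level, while *Flt3* was low, with 20.6% of the tested genes below it. In bulk RNA of a mixed culture these levels do not say which cells carry them. Other genes of both programmes, named after their values were seen, covered a wide range of levels in unstimulated DCs. Of the macrophage programme, *Lyz2*, which encodes lysozyme, stood at 11190 ± 1672 CPM, *Csf1r*, which encodes the CSF1 receptor, at 1101 ± 87.9 CPM and *Cd163*, a scavenger receptor, at 0.491 ± 0.300 CPM. Of the DC programme, *Naaa* stood at 406 ± 19.5 CPM and *Irf4*, a transcription factor of the type 2 subset, at 241 ± 19.6 CPM. At the low end of that programme, *Btla* stood at 0.875 ± 0.063 CPM and *Xcr1* at 0.070 ± 0.068 CPM. As CPM, these levels do not rank the genes against each other.

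The order of the genes by RPKM differed between the conditions in its middle. In LPS-activated DCs *Spi1* (139 ± 19.0 RPKM), *Adgre1* (114 ± 23.5 RPKM) and *Mertk* (93.2 ± 9.29 RPKM) each overlapped the next, and *Itgam* was in sixth place with 52.8 ± 6.00 RPKM. In IFN-β-treated DCs *Itgam* (66.4 ± 6.63 RPKM), *Mertk* (61.4 ± 5.12 RPKM) and *Adgre1* (50.9 ± 12.7 RPKM) could not be ordered beyond their spread. On all exon bases *Itgax* and *Sirpa* held the first and second place, and *Zbtb46*, *Dpp4* and *Flt3* the last places, in all 3 conditions. The place of *Itgam* rests on how reads were counted, because 68.7% of its exon bases (3450 of 5024) are also annotated to the gene *Gm49368* on the same strand, which had 10 to 44 counts per library. Reads that fall on 2 genes are left out by the counting mode used. On the 1574 bases of *Itgam* that are not shared, a length chosen after seeing the data, its level was 191 ± 18.1 RPKM in unstimulated, 169 ± 19.2 in LPS-activated and 212 ± 21.2 in IFN-β-treated DCs. By that length its mean lay between those of *Sirpa* and *Spi1* in all 3 conditions, so the order given above does not hold for *Itgam*. Its range overlapped that of *Sirpa* in unstimulated DCs (174 to 210 and 187 to 223 RPKM) and that of *Spi1* in LPS-activated DCs (153 to 190 and 118 to 155 RPKM).

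**Figure D1:**
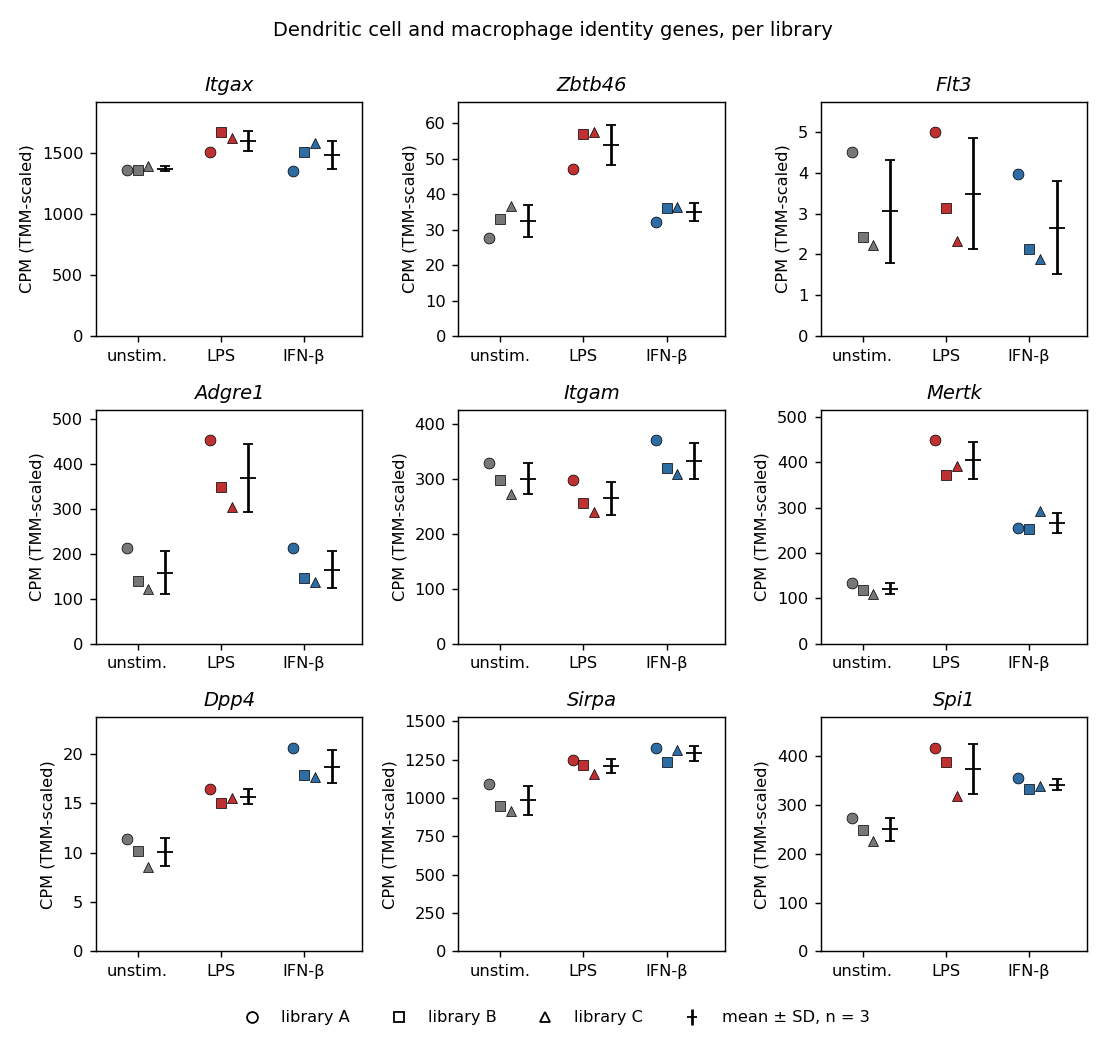
Level of each gene in each library in CPM on TMM-scaled libraries, by condition (unstim. is unstimulated), with the axis from 0 in every panel. Symbols are the library letters and the bar beside them is the mean ± SD of 3 libraries. The LPS libraries of *Mertk* lie between 372 and 449 CPM, above all unstimulated libraries at 110 to 134 CPM, while those of *Flt3* overlap between conditions.

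*Mertk* and *Dpp4* had the largest increases of the 9 genes in IFN-β-treated DCs and were also higher in LPS-activated DCs, so the sequence around their transcription starts is shown. Each window holds 300 bases (250 before the start and 50 after it) on the strand of the gene, from RefSeq on GRCm38.p6. Capitals mark a match to the interferon-response-like motif GAAANNGAA on either strand.
Mertk, chr2:128698665-128698964, plus strand: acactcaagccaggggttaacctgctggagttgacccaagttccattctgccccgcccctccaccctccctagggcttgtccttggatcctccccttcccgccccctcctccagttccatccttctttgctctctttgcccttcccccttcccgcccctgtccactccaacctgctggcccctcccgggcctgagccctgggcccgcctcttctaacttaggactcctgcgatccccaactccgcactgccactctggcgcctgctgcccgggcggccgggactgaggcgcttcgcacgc
Dpp4, chr2:62412182-62412481, minus strand: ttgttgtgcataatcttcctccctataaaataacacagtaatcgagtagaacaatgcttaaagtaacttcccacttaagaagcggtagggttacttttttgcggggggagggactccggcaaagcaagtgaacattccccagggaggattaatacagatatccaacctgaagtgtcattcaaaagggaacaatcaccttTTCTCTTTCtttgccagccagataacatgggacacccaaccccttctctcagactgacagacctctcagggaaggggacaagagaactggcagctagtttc

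The window of *Dpp4* held 1 match to GAAANNGAA, a motif found in 8.56% of 32851 RefSeq windows of this length. The window of *Mertk* held none. Windows were given for 6 of the 9 genes (*Itgax*, *Zbtb46*, *Flt3*, *Itgam*, *Mertk* and *Dpp4*), and that of *Zbtb46* lies at a start inside the gene, not at the outermost start annotated by GENCODE. None of the 6 held the PU.1 motif GAGGAAGT (3.2% of all windows), the ETS-IRF motif GGAANNGAA (8.24%) or the NF-kB-like motif GGGNNTTTC (4.36%) on either strand, which says only that these letters are not in these windows. The motifs can overlap, since those of PU.1 and ETS-IRF both hold GGAA and those of ETS-IRF and the interferon response both end in GAA.

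The first comparison asked which of the genes differ after activation with LPS. 7 of the 9 genes rose, against 68.2% of all tested genes called in either direction, so the share called was near the background. In the main fit (all 9 libraries, TMM, no block) none of the 9 was called lower by edgeR, also at an unadjusted p under 0.05, nor by DESeq2 with its size factors. *Itgam* was called lower with upper-quartile factors (-0.28, edgeR adjusted p = 0.0216) and without LPS library A (-0.27, edgeR adjusted p = 0.0475). The median log2 fold change of the 9 genes was 0.58, beside -0.04 for all tested genes. These directions depend on TMM: with scaling by library size alone, which moved the median of all genes by -0.58, *Mertk* and *Adgre1* were called higher and *Itgax*, *Itgam* and *Sirpa* lower. With that scaling 21.9% of all calls were to higher levels, where TMM gave 5334 higher and 5750 lower.

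The second comparison asked the same of IFN-β. 4 of the 9 genes rose (*Mertk*, *Dpp4*, *Sirpa* and *Spi1*), beside 46.9% of all tested genes called in either direction, again near the background. The median log2 fold change of the 9 was 0.15, beside -0.02 for all tested genes. With scaling by library size alone the median of all genes moved by -0.31, 22.3% of all calls were to higher levels, where TMM gave 3837 higher and 3794 lower, and *Mertk* and *Dpp4* remained called higher. Both comparisons use the same unstimulated libraries.

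Among the DC genes, *Zbtb46* was higher in LPS-activated DCs and did not pass the test with IFN-β. *Zbtb46* (chr2:181387762-181459426) encodes a zinc finger transcription factor used to mark committed conventional DCs. Its level was 27.8, 32.9 and 36.8 CPM in unstimulated libraries A, B and C, 47.2, 56.9 and 57.5 CPM after LPS and 32.1, 36.2 and 36.5 CPM after IFN-β. Every LPS library lay above every unstimulated library, whereas the IFN-β libraries lay within the unstimulated range. The log2 fold change was 0.73 ± 0.11 (SE, n = 3 against 3, edgeR adjusted p = 1.6e-04) with LPS, a 1.66-fold rise, and 0.10 ± 0.11 (edgeR adjusted p = 0.481) with IFN-β.

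*Itgax* (chr7:128129547-128150657) encodes CD11c, the integrin alpha chain used to gate DCs. It stood at 1367, 1361 and 1396 CPM in unstimulated DCs, at 1508, 1673 and 1625 CPM after LPS and at 1359, 1510 and 1586 CPM after IFN-β. The LPS libraries did not overlap the unstimulated ones, but the difference was small. Its log2 fold change with LPS was 0.22 ± 0.09 (edgeR adjusted p = 0.0415), and this call was the least stable of the 7: it passed as higher under 6 of 18 alternatives and was lost without any single unstimulated library, without LPS B, LPS C or IFN-β B, with the log2 fold change between 0.19 and 0.26 and the highest edgeR adjusted p at 0.124 in the 9 fits that left out a library. With IFN-β the log2 fold change was 0.11 ± 0.09 (edgeR adjusted p = 0.321), and the ranges overlapped.

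*Flt3* (chr5:147330741-147400489) encodes the receptor for FLT3 ligand, the cytokine on which DC progenitors depend. Its raw counts were 178, 108 and 99 in unstimulated, 141, 108 and 76 in LPS-activated and 169, 80 and 68 in IFN-β-treated libraries A, B and C. Library A was the highest in every condition, and the 3 conditions overlapped. No difference passed the test: the 95% interval of the log2 fold change ran from -0.63 to 1.01 with LPS and from -1.01 to 0.63 with IFN-β. These intervals include the spread between letters. Within letters A, B and C the value was 0.13, 0.32 and 0.05 with LPS and -0.17, -0.16 and -0.20 with IFN-β. With the letter as a block it was 0.20 ± 0.13 (edgeR adjusted p = 0.182) with LPS and -0.21 ± 0.13 (edgeR adjusted p = 0.197) with IFN-β.

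*Dpp4* (chr2:62330073-62412231) encodes the peptidase CD26, a surface marker of the DC subset that cross-presents antigen. It was low but higher after either treatment, with 11.4, 10.2 and 8.55 CPM in unstimulated, 16.5, 15.0 and 15.5 CPM in LPS-activated and 20.6, 17.8 and 17.6 CPM in IFN-β-treated libraries. All treated libraries lay above all unstimulated ones. The log2 fold change was 0.64 ± 0.11 (edgeR adjusted p = 4.0e-04) with LPS and 0.90 ± 0.11 (edgeR adjusted p = 9.6e-05) with IFN-β, a 1.86-fold rise. Of its exon bases 3.67% overlap the antisense gene *Gm13561*, which had 0 to 3 counts per library.

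Of the 9 genes, *Mertk* had the largest log2 fold change with either treatment. *Mertk* (chr2:128698956-128802894) encodes a receptor tyrosine kinase that binds dead cells through the bridging proteins GAS6 and protein S. Its level was 134, 119 and 110 CPM in unstimulated, 449, 372 and 392 CPM in LPS-activated and 255, 252 and 292 CPM in IFN-β-treated libraries, so the 3 conditions were fully separate. The rise was 3.34-fold with LPS (log2 fold change 1.74 ± 0.10, edgeR adjusted p = 1.2e-07) and 2.20-fold with IFN-β (1.14 ± 0.10, edgeR adjusted p = 1.2e-05). Both stayed past the threshold in all 18 alternatives, library size alone included.

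*Adgre1* (chr17:57358691-57483527) encodes F4/80, an adhesion receptor that marks mouse macrophages. It had 212, 140 and 121 CPM in unstimulated, 453, 349 and 305 CPM in LPS-activated and 212, 145 and 137 CPM in IFN-β-treated libraries. The lowest LPS library was above the highest unstimulated library, and the IFN-β libraries nearly repeated the unstimulated ones letter by letter. With LPS the log2 fold change was 1.23 ± 0.23 (edgeR adjusted p = 7.4e-04), a 2.34-fold rise, with 1.09, 1.31 and 1.33 within letters A, B and C. With IFN-β it was 0.06 ± 0.23 (edgeR adjusted p = 0.846), and the 95% interval from -0.45 to 0.57 left room for a modest change in either direction. That interval includes the spread between letters. Within letters A, B and C the IFN-β value was -0.0016, 0.05 and 0.18. With the letter as a block it was 0.075 ± 0.063 (edgeR adjusted p = 0.333).

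*Itgam* (chr7:128062640-128118491) encodes CD11b, the integrin alpha chain of the complement receptor CR3, and lies beside *Itgax* on the same strand. Its values were 330, 299 and 274 CPM in unstimulated, 299, 257 and 240 CPM in LPS-activated and 372, 320 and 309 CPM in IFN-β-treated libraries. Within each letter the LPS library was the lowest and the IFN-β library the highest. The LPS and the IFN-β libraries each overlapped the unstimulated ones but not each other. Without a term for the letters the log2 fold changes were -0.18 ± 0.11 (edgeR adjusted p = 0.152, and 0.0475 without LPS library A) with LPS and 0.15 ± 0.11 (edgeR adjusted p = 0.283) with IFN-β. With the letter as a replicate block both calls changed, to -0.18 (edgeR adjusted p = 0.00879) with LPS and 0.15 (edgeR adjusted p = 0.0368) with IFN-β. The block raised the members called from 7 to 8 with LPS and from 4 to 5 with IFN-β.

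*Sirpa* and *Spi1* are expressed in both lineages, and both were higher after either treatment. *Sirpa* (chr2:129592835-129632228) encodes the inhibitory receptor for CD47 that also marks the type 2 subset of conventional DCs. Its level was 1094, 948 and 918 CPM in unstimulated, 1246, 1218 and 1159 CPM in LPS-activated and 1328, 1235 and 1313 CPM in IFN-β-treated libraries, with no overlap between treated and unstimulated DCs. The log2 fold change was 0.29 ± 0.09 (edgeR adjusted p = 0.0125) with LPS and 0.39 ± 0.09 (edgeR adjusted p = 0.0043) with IFN-β. Without unstimulated library B the LPS difference no longer passed (edgeR adjusted p = 0.0601). *Sirpa* has close paralogs in the *Sirpb1* genes, and reads that map equally well to several of them are left out by the counting mode, so its level is uncertain to that extent.

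*Spi1* (chr2:91082390-91115756) encodes PU.1, the transcription factor that myeloid cells of both kinds require. It was measured at 274, 250 and 227 CPM in unstimulated, 418, 388 and 318 CPM in LPS-activated and 355, 333 and 338 CPM in IFN-β-treated libraries. All 6 treated libraries exceeded the 3 unstimulated ones. It rose 1.50-fold with LPS (log2 fold change 0.58 ± 0.11, edgeR adjusted p = 5.3e-04) and 1.37-fold with IFN-β (0.45 ± 0.11, edgeR adjusted p = 0.00508). With scaling by library size alone neither difference passed, and the LPS value was -0.0003.

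**Figure D2:**
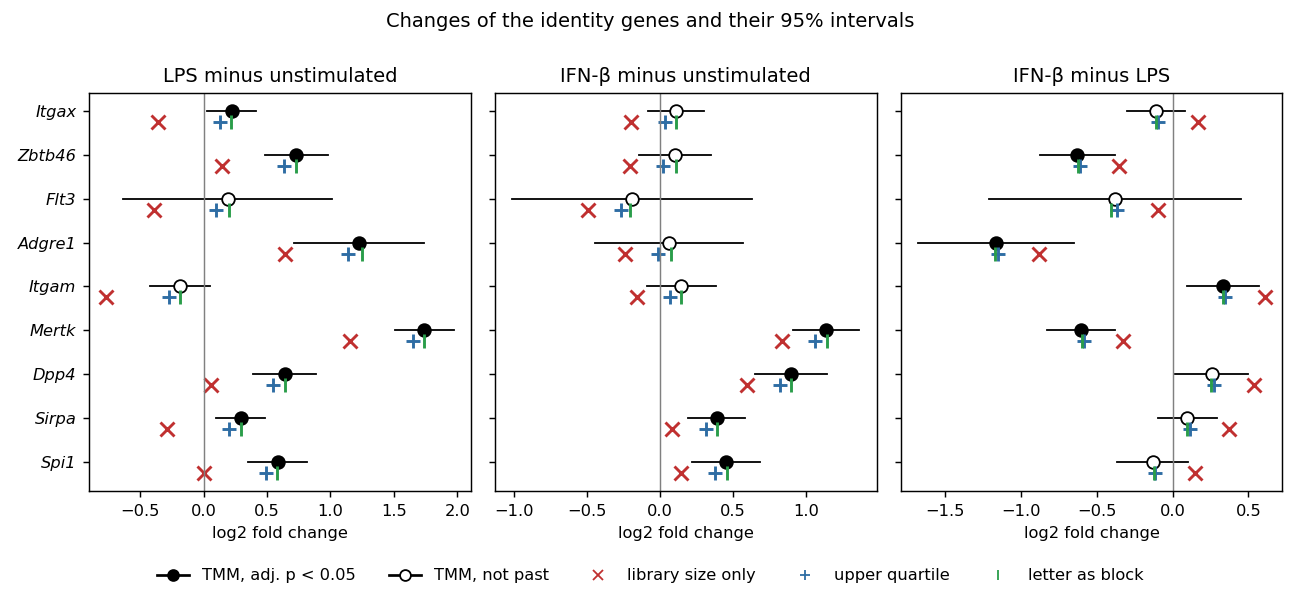
Log2 fold changes of the 9 genes in the 3 comparisons, with 95% intervals (lines); filled circles passed an adjusted p of 0.05 and open circles did not. Marks below each circle give the value with library size alone (cross), upper-quartile factors (plus) and the letter as a block (bar). With library size alone all LPS values lie lower, and *Itgax*, *Flt3*, *Itgam* and *Sirpa* lie below 0, while *Mertk* and *Adgre1* stay above 0.

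The third comparison tested whether the 2 responses differ, which with shared controls is IFN-β against LPS. 4 of the 9 genes differed (49.1% of all tested genes did in either direction, a share near that of the 9 genes). *Adgre1* was lower in IFN-β-treated than in LPS-activated DCs by a log2 difference of -1.16 ± 0.23 (edgeR adjusted p = 0.00183), *Zbtb46* by -0.63 ± 0.11 (edgeR adjusted p = 9.0e-04) and *Mertk* by -0.60 ± 0.10 (edgeR adjusted p = 6.0e-04). These 3 kept their direction and call in all 18 alternatives. *Itgam* was higher with IFN-β, by 0.33 ± 0.11 (edgeR adjusted p = 0.0251), a call that was lost in 3 of 9 fits leaving out a library (LPS B, LPS C or IFN-β A), where the lowest value was 0.24.

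For *Dpp4*, *Sirpa*, *Itgax* and *Spi1* no difference between the treatments passed the test. The 95% interval of the log2 difference ran from 0.02 to 0.50 for *Dpp4*, from -0.10 to 0.29 for *Sirpa*, from -0.30 to 0.08 for *Itgax* and from -0.36 to 0.10 for *Spi1*. *Dpp4* passed without unstimulated library A (edgeR adjusted p = 0.0462) or C (0.0361), with upper-quartile factors (0.27, edgeR adjusted p = 0.044) and with the 2 groups alone (0.28, edgeR adjusted p = 0.0324). Scaling by library size alone gave higher values with IFN-β for *Dpp4* (0.53, edgeR adjusted p = 8.9e-04) and *Sirpa* (0.37, edgeR adjusted p = 9.4e-04). With the letter as a replicate block 2 further calls were made, *Dpp4* (0.25, edgeR adjusted p = 0.0141) and *Flt3* (-0.40, edgeR adjusted p = 0.0187), which brought the number to 6.

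Ratios of genes within a library do not depend on how libraries are scaled. *Zbtb46* was set against *Mertk*, and *Itgax* against *Itgam*, in this way. The log2 ratio of *Zbtb46* to *Mertk* counts was -1.90 ± 0.35 in unstimulated, -2.91 ± 0.30 after LPS and -2.93 ± 0.11 after IFN-β (SD, n = 3). The difference from unstimulated DCs was -1.01 with LPS and -1.03 with IFN-β, with the ranges separate and a two-sided exact permutation p = 0.1 in each, the smallest that 3 libraries against 3 allow. After adjustment over the 6 ratio comparisons both were 0.3. The log2 ratio of *Itgax* to *Itgam* was 2.20 ± 0.15, 2.60 ± 0.23 and 2.16 ± 0.25 in the same order. Its difference was 0.40 with LPS (exact permutation p = 0.2) and -0.04 with IFN-β (exact permutation p = 0.9). Reads that also fall on *Gm49368* are missing from the *Itgam* counts, so the level of this ratio depends on the counting. Within letters A, B and C the *Itgax* to *Itgam* difference was 0.29, 0.52 and 0.41 with LPS and -0.18, 0.05 and 0.01 with IFN-β, and that of *Zbtb46* to *Mertk* was -0.98, -0.85 and -1.19 with LPS and -0.72, -0.95 and -1.42 with IFN-β. The permutation test does not use the letters.

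Around *Zbtb46* and *Flt3*, 29 other genes of the conventional DC programme were tested. With LPS 11 of them rose and 11 fell (median log2 fold change -0.13), and with IFN-β 9 rose and 7 fell (median 0.23). The highest with LPS was *Btla*, a co-inhibitory receptor of cross-presenting DCs, which rose from a mean of 0.875 to 26.6 CPM (log2 fold change 4.92 ± 0.18, edgeR adjusted p = 6.6e-09). *Clec9a*, the receptor for dead cells on the same subset, fell from 13.1 to 3.92 CPM (-1.75 ± 0.22, edgeR adjusted p = 3.4e-05) and *Clec10a*, a lectin of the type 2 subset, fell from 13.8 to 1.66 CPM (-3.05 ± 0.24, edgeR adjusted p = 9.2e-07). With IFN-β *Clec9a* instead rose, to 21.7 CPM (0.73, edgeR adjusted p = 0.0104), while *Clec10a* fell (-0.79, edgeR adjusted p = 0.00845). The highest value with IFN-β was that of *Hmgn3*, which rose from 1.29 to 6.65 CPM, and to 11.5 CPM with LPS. *Fscn1*, which bundles actin in mature DCs, rose from 192 to 376 CPM with IFN-β and to 1046 CPM with LPS. *Kit* fell with IFN-β from 8.38 to 3.56 CPM and did not pass the test with LPS (edgeR adjusted p = 0.208). The shares called were 75.9% with LPS and 55.2% with IFN-β, beside 68.2% and 46.9% of all tested genes, which were also called in both directions.

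Around *Adgre1* and *Mertk*, 32 other genes of the macrophage programme were tested. With LPS 10 rose and 17 fell (median -0.34), while with IFN-β 10 rose and 7 fell (median 0.06). *Cd14*, the co-receptor for LPS, rose from 75.8 to 700 CPM with LPS (log2 fold change 3.21 ± 0.09, edgeR adjusted p = 1.8e-09), and the transcription factor gene *Maf* rose from 25.8 to 209 CPM (3.02 ± 0.44, edgeR adjusted p = 1.1e-04). *Myo7a* fell from 86.1 to 15.6 CPM (-2.46 ± 0.09, edgeR adjusted p = 5.6e-09). *Fcgr1*, the high-affinity IgG receptor CD64, had the highest value with IFN-β, from 97.3 to 567 CPM (2.54 ± 0.23, edgeR adjusted p = 1.3e-05). It also rose with LPS, to 446 CPM (2.20, edgeR adjusted p = 8.3e-06). The shares called were 84.4% with LPS and 53.1% with IFN-β, beside 68.2% and 46.9% of all tested genes.

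**Figure D3:**
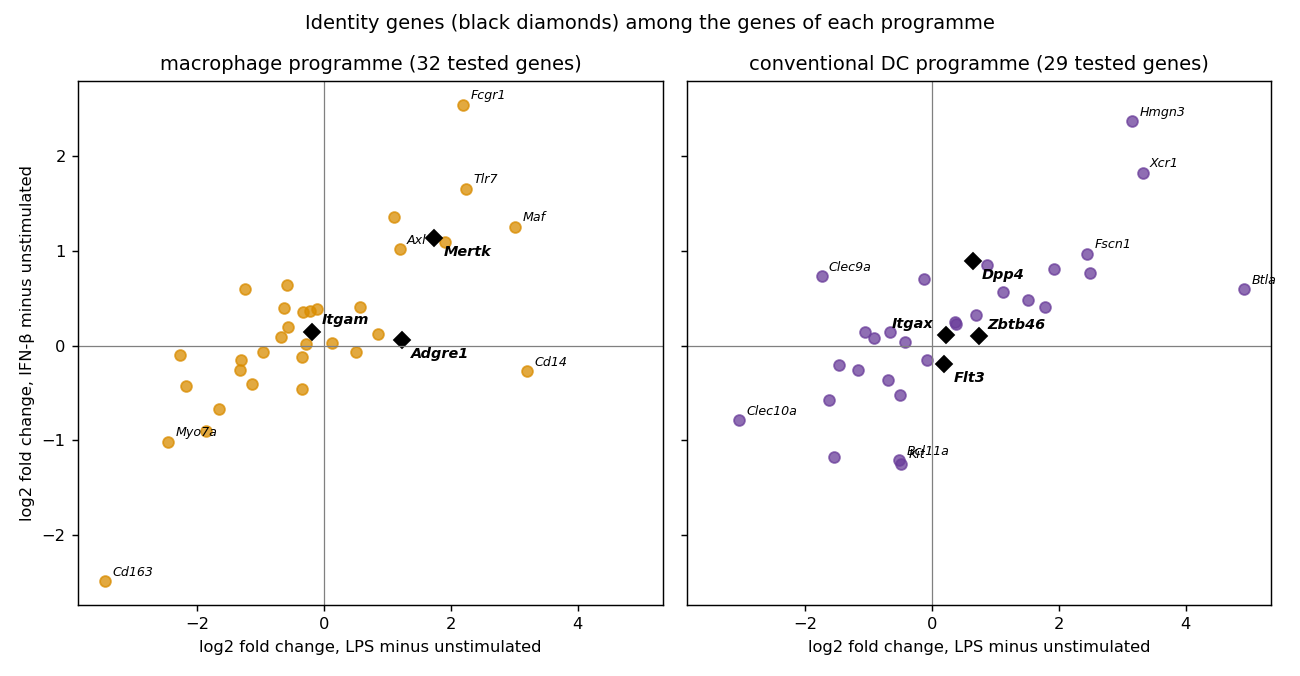
Log2 fold change with LPS (horizontal) and with IFN-β (vertical) on TMM-scaled libraries for the tested genes of the macrophage programme (left, 32 genes) and the conventional DC programme (right, 29 genes), with the identity genes as black diamonds. The 2 axes share the unstimulated libraries. *Mertk* lies at 1.74 and 1.14, near *Axl*, and *Adgre1* at 1.23 and 0.06, while *Myo7a* lies to the left of 0.

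Of 23 tested ligands and partners of the 9 genes, 11 rose and 6 fell with LPS (73.9% called, beside 68.2% of all genes), and 10 rose and 13 did not pass the test with IFN-β (43.5%, beside 46.9%). The ligand of SIRPA, *Cd47*, rose with IFN-β from 233 ± 38.7 to 655 ± 106 CPM (log2 fold change 1.49 ± 0.16, edgeR adjusted p = 3.2e-05), and *Ptpn6*, the phosphatase SHP-1 that SIRPA recruits, rose from 148 ± 15.3 to 266 ± 35.3 CPM (0.84 ± 0.13, edgeR adjusted p = 3.6e-04). Both also rose with LPS, *Cd47* to 625 CPM and *Ptpn6* to 237 CPM (edgeR adjusted p = 1.2e-05 and 6.4e-04). No difference between the 2 responses passed the test for either gene (edgeR adjusted p = 0.735 and 0.315). *Gas6*, a ligand of MERTK, was low and fell with LPS from 3.89 ± 1.41 to 1.49 ± 0.731 CPM (-1.38 ± 0.41, edgeR adjusted p = 0.0113). *Icam1*, an adhesion ligand of CR3, rose with LPS from 199 ± 11.1 to 616 ± 89.0 CPM (1.63 ± 0.11, edgeR adjusted p = 4.1e-07). It rose less with IFN-β, to 348 CPM (0.81, edgeR adjusted p = 2.2e-04). Chosen after their values were seen, *Itgb2*, the beta chain that pairs with both CD11b and CD11c, had log2 fold changes of -0.08 and 0.08 with LPS and IFN-β (edgeR adjusted p = 0.491 and 0.515), and *Flt3l*, the ligand of FLT3, had 0.34 and 0.30 (edgeR adjusted p = 0.0624 and 0.121).

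Of 22 tested paralogs of the 9 genes, 8 rose and 10 fell with LPS (81.8% called, beside 68.2% of all genes), and 7 rose and 3 fell with IFN-β (45.5%, beside 46.9%). The 3 TAM receptor genes were a case: with LPS *Mertk* rose, *Axl* rose from 894 ± 44.4 to 2050 ± 123 CPM (log2 fold change 1.20, edgeR adjusted p = 5e-07, chosen after its values were seen) and *Tyro3* fell from 13.6 ± 1.36 to 3.86 ± 0.634 CPM (-1.82 ± 0.15, edgeR adjusted p = 1.2e-06). *Adgre5*, an adhesion receptor of the family of *Adgre1*, fell with LPS from 70.1 ± 14.1 to 20.4 ± 2.24 CPM (-1.78 ± 0.14, edgeR adjusted p = 9.2e-07), opposite to *Adgre1*. *Fap*, the closest relative of *Dpp4*, rose with LPS from 2.12 ± 0.482 to 24.7 ± 4.42 CPM (3.54 ± 0.19, edgeR adjusted p = 5.1e-08) and with IFN-β to 9.54 ± 1.24 CPM (2.17 ± 0.18, edgeR adjusted p = 8.8e-06).

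Among 30 other myeloid transcription factor genes considered beside *Spi1*, 14 rose and 10 fell with LPS (80.0% called), and 15 rose and 5 fell with IFN-β (66.7%), beside 68.2% and 46.9% of all genes. *Stat5a*, which transmits the GM-CSF signal, rose with LPS from 46.8 to 301 CPM (log2 fold change 2.68 ± 0.10, edgeR adjusted p = 5.3e-09), and *Pparg*, a factor of lipid-handling macrophages, fell from 15.3 to 2.95 CPM (-2.37 ± 0.21, edgeR adjusted p = 2.7e-06). Of 13 monocyte genes, 5 rose and 6 fell with LPS (84.6% called), and *Ccr2*, the chemokine receptor of inflammatory monocytes, fell from 339 to 93.0 CPM (-1.87 ± 0.20, edgeR adjusted p = 1.1e-05).

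Libraries of the same letter deviated from their condition means together, and letter A was often the highest in the genes considered here. *Adgre1*, *Dpp4*, *Flt3*, *Itgam*, *Sirpa* and *Spi1* were highest in library A in all 3 conditions, and *Zbtb46* was lowest in A in all 3. Over all tested genes 15.0% were highest and 12.2% lowest in A in this way. The spread was widest for *Flt3*, whose highest library was between 2.02 and 2.14 times the lowest within a condition, and for *Adgre1*, with 1.48 to 1.75 times.

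Markers of macrophages and neutrophils moved with the same letter. Of the 32 macrophage genes 15 were highest in A in all 3 conditions. The summed level of the 32 genes, mostly of *Lyz2*, was 19650, 15810 and 15620 CPM in unstimulated libraries A, B and C. It was 19040, 15430 and 15540 CPM after LPS and 20160, 17480 and 18300 CPM after IFN-β. Of 8 tested neutrophil genes 6 were highest in A in all conditions, with sums, mostly of *Mmp8*, of 517, 383 and 465 CPM in unstimulated libraries. Other lists also held more such genes than the 15.0% of all tested genes. Highest in A in all conditions were 36.7% of 30 myeloid transcription factor genes, 31.8% of 22 paralogs and 30.8% of 13 monocyte genes. Of 29 conventional DC genes 6 were highest and 6 lowest in A. The part of these markers in the levels of *Adgre1*, *Zbtb46* and *Flt3* was not tested. With the 3 letter A libraries left out together, an alternative chosen after seeing the data, 7, 4 and 4 of the 9 genes were called with LPS, with IFN-β and between them, the counts found with all libraries.

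**Figure D4:**
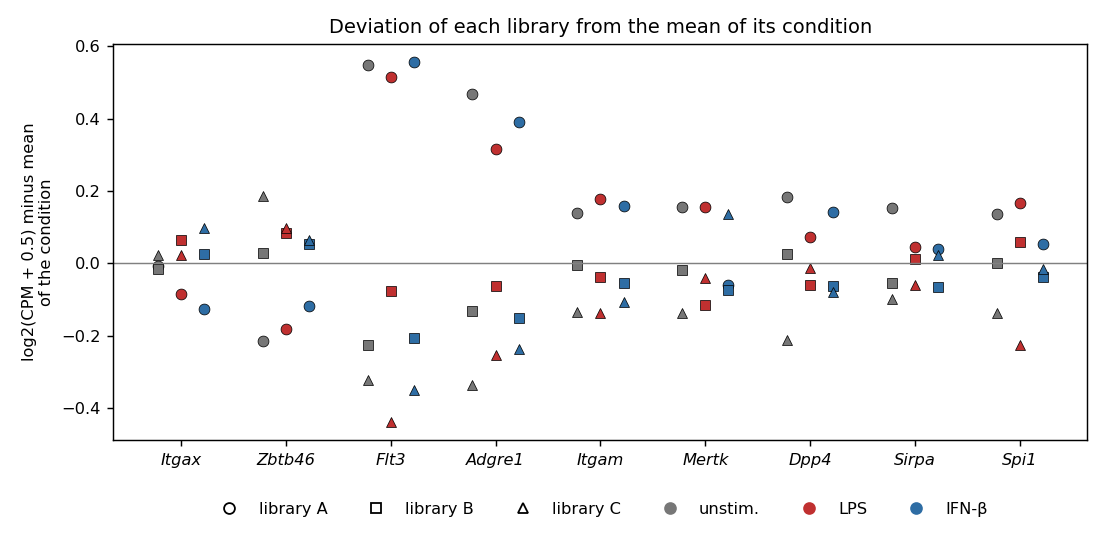
Deviation of each library from the mean of its condition in log2(CPM + 0.5) for the 9 genes; symbols are letters and colours are conditions. Circles (letter A) lie above 0 for *Flt3*, *Adgre1*, *Itgam*, *Dpp4*, *Sirpa* and *Spi1* in all 3 conditions and below 0 for *Zbtb46*.

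The genes with the pattern most like each of the 9 were found by Pearson's r of log2(CPM + 0.5) over the 9 libraries, which share 3 conditions and 3 letters and so give a description only. *Mertk* was nearest to *Rnf135* (r = 0.997) and *Naa25* (r = 0.996), and *Dpp4* to *Mreg* (r = 0.997) and *Mill2* (r = 0.995). *Zbtb46* was nearest to *Spata48* (r = 0.996), *Adgre1* to *Igf2bp1* (r = 0.992) and *Klf3* (r = 0.991), and *Itgam* to *Idua* (r = 0.992). For *Sirpa* and *Spi1* the nearest genes were *Hhat* (r = 0.992) and *Fzd5* (r = 0.990), and for *Itgax* and *Flt3* they were *Slc22a13b* (r = 0.966) and *Klhl24* (r = 0.953). How common such likeness is differed widely, since 2225 genes had r above 0.9 with *Mertk* and 17 with *Flt3*. Among the 9 genes themselves *Dpp4* and *Sirpa* were most alike (r = 0.967), and *Zbtb46* and *Itgam* ran most opposite (r = -0.809).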

How the data were processed

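RNA of 9 libraries (3 unstimulated, 3 LPS, 3 IFN-β) was sequenced after ribosomal RNA removal. The authors trimmed reads with Trim Galore (version 0.6.0 in the submitters' processing notes), mapped them to the mouse genome (GRCm38) with STAR (2.7.8a in those notes) and deposited raw counts per gene on a GENCODE release, without normalization. The strand setting of the counting is not given in the sources used here. Without molecular identifiers reads are not independent molecules, and 3 counts per library were taken as the floor.

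Counts were tested with edgeR 4.0.16 in R 4.3.3: filterByExpr, TMM, 1 term per condition over all 9 libraries, quasi-likelihood F-tests and Benjamini-Hochberg adjustment over 16260 genes, called at 0.05. Calls were also made with DESeq2 1.42.0, other scalings and filters, the 2 groups alone, a stricter threshold, the letter as a block and libraries left out. The fit was tested on simulated data. A standard error is the log2 fold change divided by the square root of F. The letters come from the sample titles, and all 9 same-letter pairs correlated in their deviations from the condition means (r from 0.134 to 0.546), so the blocked value is given where it changes a call. Replicates differed beyond sampling noise (chi-square per degree of freedom 13.5 to 37.6). RPKM used merged exons of GENCODE M21 (GRCm38), a later release than that of the counts, with 55230 of 55471 identifiers matched.

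The genes and lists were chosen with earlier results of these data known. Named besides the 9 genes are, in each list, up to 2 genes with the highest and up to 2 with the lowest called log2 fold change with each treatment, and the 2 genes most correlated with each of the 9. Others are marked in the text as chosen after their values were seen.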

Additional observations from a re-analysis of the deposited data

Results flagged for a closer look

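Of the 9 genes, 4 responded differently to IFN-β than to LPS by a test of the difference itself (edgeR's quasi-likelihood F-test, adjusted over all tested genes). Of all tested genes 49.1% did so, a share near that of the 9 genes. The log2 difference, IFN-β response minus LPS response, was -1.16 for *Adgre1*, -0.63 for *Zbtb46*, -0.60 for *Mertk* and 0.33 for *Itgam*. In each of the 3 letters *Adgre1*, *Zbtb46* and *Mertk* were lower and *Itgam* higher in the IFN-β library than in the LPS library. Both responses are measured against the same unstimulated libraries, which cancel in this difference. No group holds enough libraries for a search for single outlying ones.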

How the results depend on the processing

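With scaling by library size alone, 2 of the 9 genes were called with IFN-β, and the log2 fold change changed sign with LPS for *Itgax* (-0.36), *Flt3* (-0.39), *Sirpa* (-0.29) and *Spi1* (-0.0003), with IFN-β for *Itgax* (-0.20), *Zbtb46* (-0.21), *Adgre1* (-0.24) and *Itgam* (-0.16), and between treatments for *Itgax* (0.16) and *Spi1* (0.15); these follow from the shift of all genes that this scaling makes. Upper-quartile factors gave -0.013 for *Adgre1* with IFN-β. When 1 library was left out at a time, *Flt3* ranged from -0.15 to 0.57 with LPS and from -0.61 to 0.19 with IFN-β, *Zbtb46* from -0.0012 to 0.20 and *Adgre1* from -0.17 to 0.33 with IFN-β. The log2 ratio difference of *Itgax* to *Itgam* with IFN-β ranged from -0.14 to 0.10, and that of *Zbtb46* to *Mertk* between treatments from -0.19 to 0.079. None of these values was called in the fit with all libraries except *Itgax*, *Sirpa* and *Spi1* with LPS. The cause of the other changes was not tested. The members called ranged from 5 to 8 with LPS and 3 to 5 between treatments when 1 library was left out, and stayed at 4 with IFN-β. With the letter as a replicate block 11950, 9151 and 9425 genes were called in the 3 comparisons, and 8, 5 and 6 of the 9 genes; calls other than those of *Itgam*, *Dpp4* and *Flt3* did not change. The count of all genes called stayed within 1.5 times in every alternative. *Flt3* had the fewest counts of the 9 genes, 68 to 178 per library, and its standard error with LPS was 0.37, or 0.13 with the block at the same depth.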
